A study of Drosophila melanogaster with 2 samples.

Results

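The regions described here are the binding peaks of the GAGA factor on 3R, the right arm of the third chromosome of Drosophila melanogaster. They are all peaks whose chromosome is given as exactly 3R in the list from Kc cells, 861 of 3842 peaks (22.4%), and 2 peaks on the separate heterochromatin scaffold 3RHet were left out. Kc is an established cell line derived from fly embryos. The samples were 1 chromatin immunoprecipitation from Kc cells with the antibody KW3-Trl-D2 and 1 input from the same cell line, both untreated. The labels name no allele, transgene or drug in either sample, and their account of growth concerns caged flies and egg collection, not cultured cells. The peak list belongs to the ChIP sample. The input served as the control named in the design, and no file of it was analysed here.

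The GAGA factor is encoded by Trl (Trithorax-like), a gene on the left arm of the same chromosome in the RefSeq table. It binds GA-rich repeats through a zinc finger and joins with other copies of itself through a BTB/POZ domain. It is known for recruiting chromatin remodellers that clear nucleosomes from promoters, for its part in the pausing of RNA polymerase at heat shock genes, and for its presence at elements bound by Polycomb and trithorax group proteins. Arm 3R carries genes that are classical subjects of this work. The RefSeq table of the Release 6 assembly places on it the homeotic genes lab, pb, Dfd, Scr, Antp, Ubx, abd-A and Abd-B, which set segment identity, the heat shock genes Hsp70Aa, Hsp70Ab, Hsp70Ba and Hsp70Bb, and trx, a trithorax group gene. The positions in that table belong to another assembly than the peaks and were not used. Loci are therefore given by their position in BDGP5 (dm3), counted from 1, and no peak is assigned to a gene.

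Each peak has a width and a score written by the peak caller. The score is the authors' value on a scale that the file does not state, and it was used only to describe and rank peaks within the list. The number of reads is unknown, so a stretch without a peak means only that none was called at this depth. In bulk chromatin, a site bound in few cells and a site bound weakly in many cannot be told apart. The design text mentions 2 replicates for ChIP-seq, and whether this list pools libraries is unknown. With 1 list analysed and no second list to set beside it, no difference was tested. The 95% intervals below are exact Clopper-Pearson intervals for shares, exact Poisson intervals for numbers of peaks per Mb, and intervals from ordered values for medians. They cover counting error only and treat peaks as independent, although neighbouring peaks were often close together.

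The 861 peaks of 3R covered 539 kb, or 1.93% of the arm up to the end of its last peak. The first peak (22639 to 23220) scored 332.07, and the last (27893674 to 27894498) scored 204.77. Density was 30.9 peaks per Mb (interval 28.8 to 33.0) on 3R, against 32.1 on 3L, 27.6 on 2L, 33.3 on 2R and 37.8 on X. The density of 3R thus lay between those of 2L and 3L, and its interval contained the 3L value.

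Widths on 3R ran from 150 to 2412 bp, with a median of 524 bp (interval 508 to 551) and quartiles at 403 and 750 bp. The median was 526 bp on 3L, 504 bp on 2L, 556.5 bp on 2R and 505 bp on X. The median of 3R thus stood between those of the other arms. At the broad end, 106 peaks of 3R (12.3%, interval 10.2 to 14.7) were 1 kb or wider, against 10.6% on 3L, 9.67% on 2L, 10.8% on 2R and 11.3% on X. These 4 values were lower than that of 3R, and those of 3L, 2R and X lay inside its interval. At the narrow end, 78 peaks of 3R (9.06%) were under 300 bp, against 7.52% on 3L and 11.2% on X. The narrowest, from 25541818 to 25541967, was 150 bp wide and scored 69.97.

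Scores on 3R ran from 50.11 to 3233.06 with a median of 435.31 (interval 347 to 515). The quartiles were 128.76 and 1332.71. The median was 440.16 on 3L, 305.76 on 2L, 405.43 on 2R and 350.99 on X. Of the peaks on 3R, 170 (19.7%) scored under 100, against 18.7% on 3L, 26.8% on 2L, 19.0% on 2R and 20.9% on X. On 3R, 60 peaks shared a score of exactly 3100, as did 61 on 3L, 36 on 2L, 58 on 2R and 51 on X. Another 8 peaks of 3R scored above that value, and its highest score below it was 3078.92. The share at 3100 or more was 7.90% on 3R, 9.53% on 3L, 6.34% on 2L, 8.24% on 2R and 6.74% on X. Many of the strongest peaks on 3R thus cannot be ranked against each other. How the shared value arose is not stated, so whether the 8 peaks above it were stronger than the 60 is unknown.

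Wider peaks had higher scores on 3R. By quartile of score, from low to high, median widths were 369, 458, 600 and 863 bp. Of the 106 peaks of 1 kb or more, 79 were in the highest quartile and none in the lowest, and of the 78 peaks under 300 bp, 60 were in the lowest and none in the highest. Spearman's rho of width and score was 0.74 over the 861 peaks. Width and score come from the same calls on the same reads, so this is a description of the list.

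**Figure D1:**
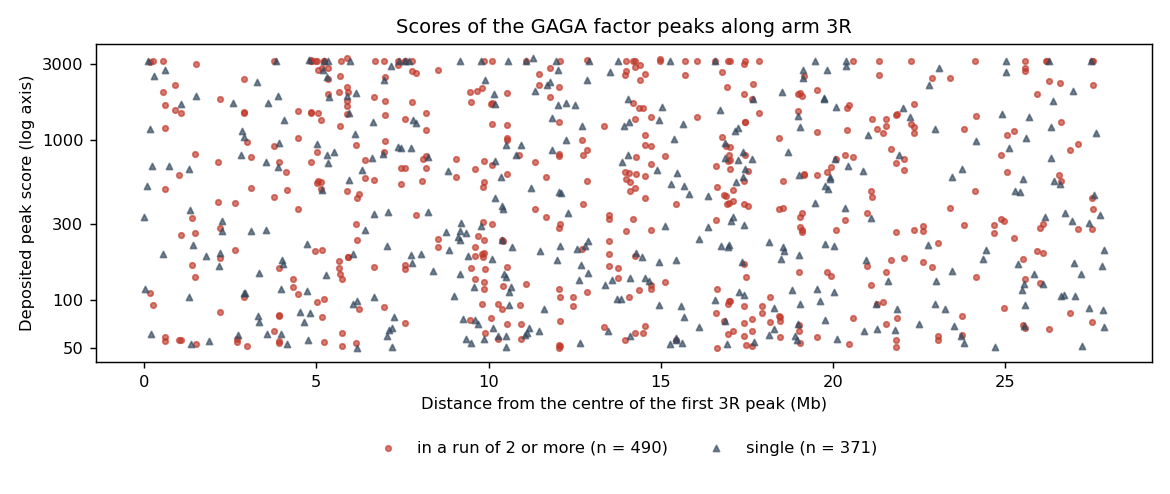
Each point is 1 of the 861 peaks on 3R, placed by its distance from the centre of the first peak (Mb) and by its deposited score on a log axis. Circles are peaks in runs of 2 or more (490) and triangles are single peaks (371), and the row of points at the top is formed by the 60 peaks that share a score of 3100.

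The 8 peaks above the shared score were not alike in their surroundings. The peak from 11301612 to 11302424 scored 3233.06 and stood alone, 55.0 kb from the peak before it and 60.3 kb from the one after. The peak from 5914826 to 5915608 had the same score, was 783 bp wide and lay 1340 bp from its neighbour on one side and 3370 bp on the other. The peak from 14991113 to 14991988, with a score of 3221.92, lay 294 bp from a peak 1365 bp wide with a score of 3100 on one side and 58.9 kb from the nearest on the other. In all, 3 of the 8 were single and 5 lay in runs, where a run joins neighbours at gaps under 2 kb. Of all 3R peaks, 56.9% lay in runs.

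Several of the others lay near each other. Peaks from 12879187 to 12880106 (score 3166.25) and from 12944544 to 12945190 (score 3115.85) lay before the longest empty stretch of the arm. The peak scored 3115.85 bordered the stretch, while the other ended 65.1 kb before it, with 6 peaks between them. Peaks from 4805681 to 4807221 (score 3160.04) and from 4882077 to 4883180 (score 3152.43) lay in the same Mb. The peak from 14023994 to 14025307 scored 3124.25 and was 1314 bp wide. Median width was 898 bp for these 8 and 1212 bp for the 60 peaks at 3100.

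The widest peaks were mostly among those tied at 3100. Of the 10 widest, 9 had that score and 7 lay in runs. The share in runs was 55.7% for the 106 peaks of 1 kb or wider, near the 56.9% of all 3R peaks. The widest, from 25039692 to 25042103, measured 2412 bp and was single. It was followed by a single peak of 2376 bp from 5243203 to 5245578 and by a peak of 2352 bp from 7585522 to 7587873, which lay 21 bp from the peak before it. The exception was the peak from 19930418 to 19932198, which was 1781 bp wide with a score of 566.13. Over the arm, 43 of the 68 peaks at 3100 or more (63.2%) were 1 kb or wider.

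Peaks were unevenly spread along 3R. In consecutive 1 Mb windows the number ran from 15 to 54, with a median of 27 over 28 windows. The fullest was the window from 5000001 to 6000000 with 54 peaks, followed by 17000001 to 18000000 with 53 and 14000001 to 15000000 with 50. The emptiest were 24000001 to 25000000 with 15, 8000001 to 9000000 with 16 and 23000001 to 24000000 with 18. The 7 windows with 40 or more peaks together held 336 peaks, 39.0% of the arm's total. All of them lay between 5 and 20 Mb, separated by windows with as few as 16 peaks.

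When the arm was divided into 3 equal parts, the middle one held most peaks. From the low-coordinate, centromere-proximal end, the parts held 274, 350 and 237 peaks, or 29.5, 37.6 and 25.5 per Mb. Scores did not follow the same order. The median score was 562 in the proximal part, 374 in the middle and 369 in the distal part, and the number of peaks at 3100 or more was 28, 26 and 14.

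Windows with many peaks on 3R differed in how strong those peaks were. Peaks of the window from 5000001 to 6000000 reached a median score of 1282.95, the highest of the 28. Its peaks covered 41.0 kb and had a median width of 706.5 bp, also the highest. Of its 54 peaks, 8 (14.8%) were at 3100 or more and 5 (9.26%) under 100, against 7.90% and 19.7% of all 3R peaks. The share at 3100 or more was larger in some other windows, such as 18.4% from 7000001 to 8000000. The window from 9000001 to 10000000 held 46 peaks with a median score of 225, and the next held 47 with a median of 238, of which 13 scored under 100. These 2 adjacent windows had counts near that of the window from 5000001, with medians about as low as those of 2 sparse windows. The sparse windows were 1000001 to 2000000 (21 peaks, median score 253) and 13000001 to 14000000 (23 peaks, median score 234). The weakest window was that from 18000001 to 19000000, where 23 peaks had a median score of 114.53 and none reached 3100. Across the 28 windows, number and median score had a Spearman's rho of 0.21, as a description.

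**Figure D2:**
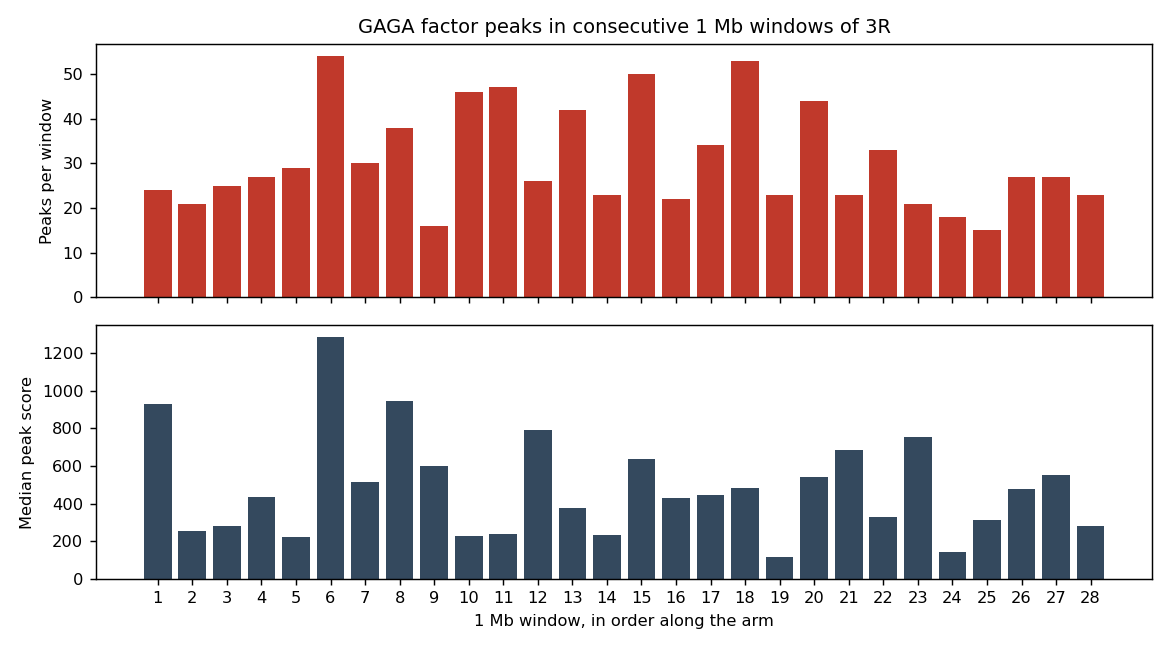
Bars show, for 28 consecutive 1 Mb windows of 3R in order along the arm, the number of peaks (top) and their median deposited score (bottom). Window 6 is the highest in both panels (54 peaks, median score 1282.95), while windows 10 and 11 have 46 and 47 peaks with medians of 225 and 238.

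At a finer scale, 42 of 279 windows of 100 kb (15.1%) held no peak, and no more than 3 in a row were empty. The share of empty windows was 19.4% on 3L, 25.8% on 2L, 19.8% on 2R and 17.4% on X, each above that of 3R. The 10 windows of 3R with 10 or more peaks held 130 peaks (15.1%). The 28 fullest windows held 31.1% of the peaks on 3R, against 31.9% in the 23 fullest of 232 on 3L and 30.5% in the 22 fullest of 224 on X. By this measure peaks on 3R were concentrated to about the same degree as on those arms.

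The fullest 100 kb window of the arm, from 17400001 to 17500000, held 19 peaks, while the windows on either side held 1 and 2. Counted from the start of any peak in place of a fixed grid, a count chosen after the values were seen, 20 peaks lay within 95.3 kb from 17387166 to 17482486. In the window, 14 of the 19 peaks lay in runs, against 56.9% of all 3R peaks. A window picked for its many peaks favours short gaps, so this count follows in part from the choice. Scores in the window ran from 52.58 to 3100 with a median of 556.94. Its strongest peaks were those from 17457844 to 17459743, which was 1900 bp wide with a score of 3100, from 17430796 to 17431750 with 2994.46, and from 17443939 to 17444550 with 1945.33. The last of these stood in a run of 4 whose other members scored 91.44, 59.4 and 168.67. The dense stretch was thus a mixture of strong and weak peaks, as the arm was. Of the 19, 4 scored under 100 and 1 reached 3100, against 19.7% and 7.90% of all 3R peaks.

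Other dense windows were those from 9800001 to 9900000 (16 peaks), 19000001 to 19100000 (14), and 5900001 to 6000000 and 12000001 to 12100000 (13 each). The window from 5900001 was the strongest of the 5, with a median score of 1626.89, a lowest score of 185.97 and 9.83 kb covered. The windows from 9800001 and 19000001 had median scores of 264 and 238, and that from 19000001 held no peak at 3100 or more. When the grid was moved by 50 kb, the fullest window became that from 12050001 to 12150000 with 17 peaks, followed by 16950001 to 17050000 with 16, and the window from 17350001 held 13. The order of the densest windows therefore depended on where the grid began. Counted from peak starts, the second densest stretch of 3R was 12028473 to 12111136, with 18 peaks in 82.7 kb and a median score of 381.

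Peak-free stretches over 100 kb made up 48.7% of 3R. There were 82 of them, with a summed length of 13.6 Mb, and they accounted for 9.53% of the 860 gaps between neighbouring peaks. The share of the arm in such stretches was 41.7% on 3L, 52.5% on 2L, 44.9% on 2R and 41.6% on X. On 3R, 42 stretches measured 100 to 150 kb, 19 measured 150 to 200 kb and 21 were longer. They were scattered along the arm, and the window from 9000001 to 10000000 was the one Mb with none centred in it.

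The longest peak-free stretch of 3R ran from 12945191 to 13383106, over 438 kb. It began directly after the peak with a score of 3115.85 named above and ended at a peak with a score of 1219.33. Next came 325 kb from 23825814 to 24150466, which lay between peaks scored 53.6 and 476.38, and 321 kb from 19173574 to 19494989, which ended at a peak with a score of 3100. The fourth, from 2300566 to 2617144, spanned 317 kb. Near it lay 2 others of the 10 longest, 1543033 to 1833120 (290 kb) and 1908179 to 2178929 (271 kb). The rest of the 10 lay from 20599617 to 20875528 (276 kb), 305039 to 564413 (259 kb), 8546771 to 8799991 (253 kb) and 16143590 to 16391208 (248 kb). The longest stretch was 346 kb on 3L, 508 kb on 2L, 817 kb on 2R and 431 kb on X.

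Peaks at the edges of these stretches were about as strong as the others on 3R. The 158 peaks beside a stretch over 100 kb had a median score of 443 and a median width of 517.5 bp, and the other 703 had 435 and 525 bp. Scores under 100 were found in 19.6% and 19.8% of them. Edge peaks lay in runs in 37.3% of cases and other peaks in 61.3%, but an edge peak has a neighbour within 100 kb on at most 1 side, so this contrast follows in part from how the sets were formed.

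Peaks far from any neighbour on 3R were few. There were 33 peaks with over 50 kb on both sides, with a median score of 208 and a median width of 505 bp. Of these, 3 reached 3100 and 7 scored under 100. Over all 861 peaks of 3R the medians were 435 and 524 bp, 7.90% reached 3100 and 19.7% scored under 100. The most isolated lay from 23264091 to 23264414, 156 kb from the peak before it and 141 kb from the one after, with a score of 87.25. Not all isolated peaks were weak. The next, from 5530237 to 5531371, lay 131 kb and 160 kb from its neighbours and had a score of 846.49 and a width of 1135 bp.

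The strongest peaks of 3R had a long stretch of their own without members. Between 565817 and 3793423, over 3.23 Mb, 72 peaks were called and none reached 3100. Their median score was 297 and their density 22.3 per Mb. On the other arms the longest stretch without a peak at 3100 or more was 1.67 Mb on 3L, 2.26 Mb on 2L, 1.96 Mb on 2R and 1.81 Mb on X. The contrast rested on the limit. The highest score inside the stretch was 2972.19, and with a limit of 2500, chosen after the values were seen, the longest stretch on 3R was 2.27 Mb, from 1527260 to 3793423, against 2.26 Mb on 2L.

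Peaks on 3R often had a close neighbour. Gaps between neighbours had a median of 8528 bp and quartiles at 925 and 38770 bp. Of the 860, 292 (34.0%, interval 30.8 to 37.2) were under 2 kb, against 32.7% on 3L, 34.0% on 2L, 31.2% on 2R and 36.6% on X. All 4 values lay within the interval of 3R. Gaps under 250 bp numbered 111 (12.9%) on 3R, against 12.8% on 3L and 14.9% on X. The closest peaks, from 14748797 to 14750033 and from 14750035 to 14750468, were 1 bp apart and scored 1392.73 and 915.43. Whether the caller divided a bound region there was not tested. The gaps nearest to the limit that joins runs measured 1968 and 2009 bp.

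**Figure D3:**
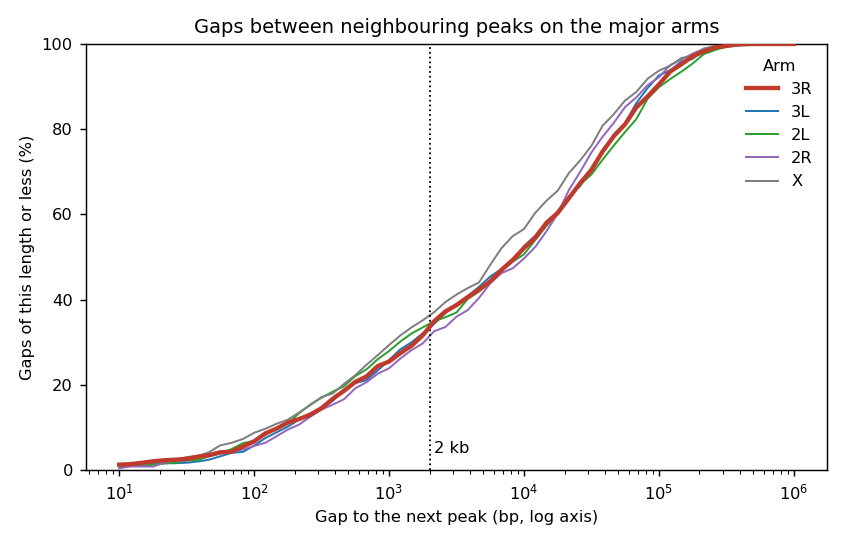
Lines show, for each of the 5 major arms, the percentage of gaps between neighbouring peaks that are at or below a given length in bp (log axis). At the dotted line of 2 kb the thick line of 3R stands at 34.0%, between 31.2% on 2R and 36.6% on X.

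Joined at gaps under 2 kb, 3R formed 569 runs, of which 371 were single peaks, 136 pairs, 36 runs of 3, 21 of 4, 4 of 5 and 1 of 6. In runs of 2 or more there were 490 peaks, 56.9% of the arm (interval 53.5 to 60.2), against 54.2% on 3L, 55.2% on 2L, 50.6% on 2R and 57.2% on X. Peaks in runs had a median score of 540 and a median width of 542 bp, and single peaks had 304 and 509 bp. The contrast in score was uneven across run sizes. Median scores were 501 in pairs, 316 in runs of 3, near that of single peaks, and 744 in runs of 4 to 6. The median span of a run was 2178 bp, and peaks covered a median of 68.9% of it.

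Runs on 3R were short. Runs of 5 or more held 26 peaks, 3.02% of the arm (interval 1.98 to 4.39), against 4.43% on 3L, 7.29% on 2L, 4.83% on 2R and 11.9% on X (interval 9.83 to 14.3). No run of 3R exceeded 6 peaks, as on 3L and 2L, while the largest on X had 12 and that on 2R had 11. Pairs held 31.6% of the peaks on 3R (interval 28.5 to 34.8), against 27.7% on 3L, 27.3% on 2L, 24.7% on 2R and 25.5% on X. The share of peaks with a close neighbour was thus near that of X, while in these counts, which were not tested, a larger share of 3R stood in pairs and a smaller share in long runs. At the 2 kb limit, the intervals of 3R and X did not overlap for runs of 5 or more. Those intervals treat peaks of the same run as independent, so they are too narrow to support a difference. Counted by runs, 5 of 569 on 3R (0.88%) and 15 of 537 on X (2.79%) had 5 or more peaks. The share of peaks in such runs was lower on 3R than on X at each of 5 settings of the run limit, score minimum and merging. It was lowest on 3R alone at 2 of them, and after merging it was 0 on both 3R and 2L. At a limit of 5 kb it was 15.7% on 3R (interval 13.3 to 18.3), against 18.3% on X (15.8 to 21.1), 12.3% on 3L and 13.9% on 2L, so that the intervals of 3R and X overlapped and 3R stood above 3L and 2L.

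**Figure D4:**
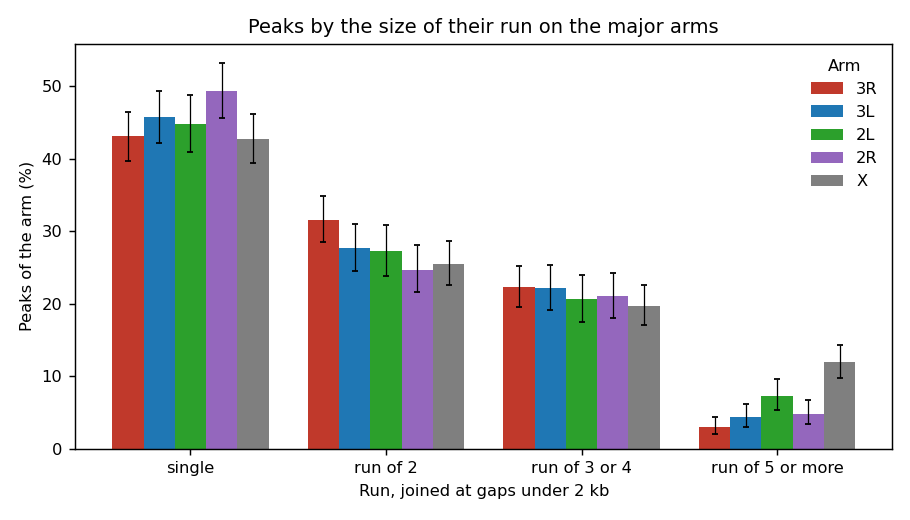
Bars show the percentage of each arm's peaks that were single or lay in runs of 2, of 3 or 4, and of 5 or more. The 95% exact binomial intervals cover counting error only and treat peaks of the same run as independent. The bar of 3R is the highest of the 5 for runs of 2 (31.6%) and the lowest for runs of 5 or more (3.02%, against 11.9% on X).

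The largest run of 3R held 6 peaks from 14563897 to 14569417, of which peaks covered 62.1%. In order along the arm their scores were 68.98, 935.31, 2578.32, 592.75, 1080.24 and 433.43. The strongest was 837 bp wide and lay 19 bp from the peak before it. A gap of 969 bp divided the first 4 from the last 2. No peak of this run reached 3100, and its highest scores stood in its interior.

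Among the runs of 5, that from 10108356 to 10115150 had scores of 700.35, 1707.8, 1260.58, 3100 and 299.72. The run from 13993549 to 13998682 began with a peak scored 56.26, followed after 44 bp by its strongest, with 2564.31. In the run from 631647 to 637942, scores were 1659.89, 1189.41, 491.44, 55.13 and 58.99. The run from 13504776 to 13507700 was the most compact and the weakest, with 5 peaks in 2925 bp and scores from 163.74 to 340.13. These 4 runs were alike in number of peaks, and their median scores ran from 234 to 1260.58.

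The rest of the 10 runs held 4 peaks each. They were those with the highest summed score of the 21 runs of 4, while all runs of 5 and 6 were named. Their high scores thus follow in part from the choice. From 4878091 to 4883964, scores were 3100, 1470.9, 3152.43 and 3100. From 7583971 to 7590485, peaks covered 85.7% of the run, and its first 2 members, 1530 and 2352 bp wide, both scored 3100 and lay 21 bp apart. The next member of that run scored 71.5. The others among the 10 were 14272646 to 14276423 and 6710438 to 6715362, each with 1 peak at 3100, and 7022465 to 7026293, whose scores ran from 980.49 to 2469.58. In 4 of these 10 runs the lowest score was under 100 while the highest was 1659.89 or more, a value read from these runs. Strong and weak peaks thus stood side by side in them. Scores under 100 made up 15.5% of all peaks in runs of 4 to 6, against 19.7% of all 3R peaks.

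**Figure D5:**
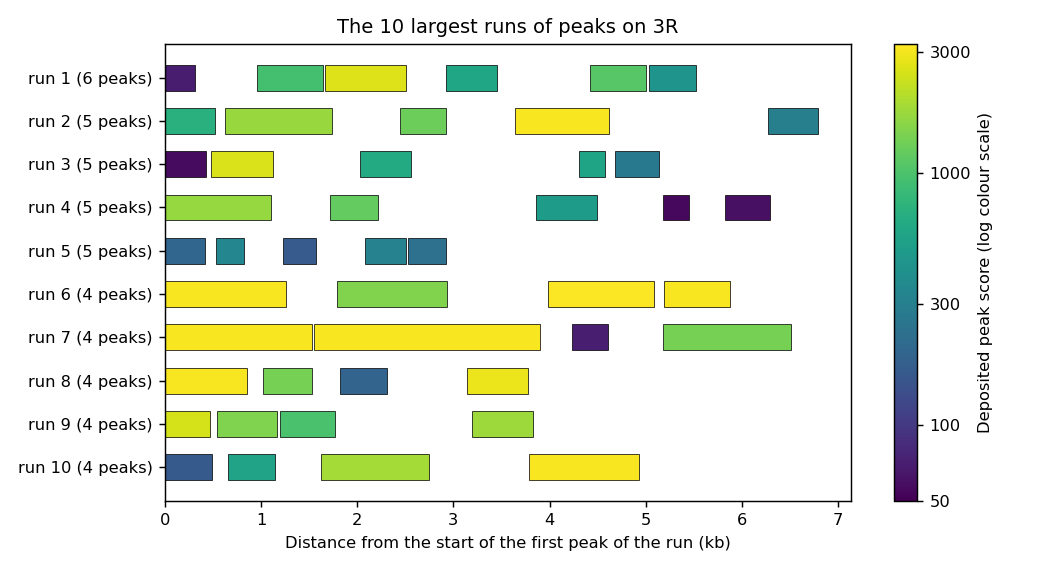
Each row is 1 of the 10 runs of 3R with the most peaks, in order of number and then of summed score, with each peak drawn to scale from the start of its run (kb) and coloured by its deposited score on a log scale. Runs 6 and 7, with 4 peaks each, hold several peaks at or above 3100, while run 5 holds none above 340.13.

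In 135 of the 136 pairs of 3R the members had unequal scores, and in the other both scored 3100. The higher score had a median of 934 and the lower a median of 204, and the median ratio of the 2 was 2.55. Since members were ordered by score, some difference between them is built in. The higher member was also the wider in 98 of the 135 (72.6%). In 24 pairs the scores differed 10-fold or more. A member at 3100 or above was found in 22 pairs, and in 2 of these both members were. Peaks at 3100 or more made up 8.82% of pair members, near the 7.90% of all 3R peaks. The median gap within a pair was 414 bp. The higher member stood on the low-coordinate side in 77 of the 135 pairs.

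Scores of neighbours were loosely related on 3R. Spearman's rho of the scores on either side of a gap was 0.19 for the 292 gaps under 2 kb, 0.11 for the 486 gaps of 2 to 100 kb and 0.19 for the 82 longer ones. Neighbours share a library and, when close, may share reads, so these are descriptions. The value was as high across the longest gaps as across the shortest.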

How the data were processed

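ChIP-seq reads of Kc cells were aligned with Bowtie to BDGP5, per the submitters' processing notes, and MACS called the peaks, per the file headers. Versions, settings, duplicate removal and pooling were not given in the sources used here. Per peak, the deposited file gives a position and a score. The score was used as deposited, and its scale is not stated.

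Starts were turned into 1-based positions. Each arm was measured up to its last peak, and peaks were placed in windows by their midpoint. Gaps are the bases between neighbouring peaks, and runs join neighbours at gaps under 2 kb. Python 3.11.15, NumPy 2.4.6, SciPy 1.17.1, pandas 2.3.3 and Matplotlib 3.10.9 were used, and the gap, run, merging and window counts were checked on a simulated list. With 1 list, no difference was tested.

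Named were the 10 highest and 10 widest peaks, the 10 largest runs, the 5 fullest 100 kb windows and the 10 longest stretches. Runs with the same number of peaks were ordered by summed score. Isolated, closest and narrowest peaks were picked once their values were known. The region and all rules were chosen with earlier results of these data known. Alternatives were a score minimum of 100, merging of peaks closer than 500 bp, limits of 1 and 5 kb, and windows moved by 50 kb. A BDGP5 genome or annotation was not used here, so planned shares of peaks at gene starts or with GA-rich elements were left out.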

Additional observations from a re-analysis of the deposited data

How the results depend on the processing

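The number of 3R peaks stayed within 1.5 times that of the deposited list. Of the 17 other recomputed values, 3 stayed within the 95% interval of the value from the deposited list and 14 did not. With scores of 100 or more kept, 691 peaks gave 24.8 per Mb, a median width of 593 bp, a median score of 669.75, 29.9% of gaps under 2 kb and 51.2% of peaks in runs. With peaks closer than 500 bp merged, 694 peaks gave 24.9 per Mb, a median width of 631.5 bp, a median score of 545.21, 18.0% of gaps under 2 kb and 33.0% of peaks in runs. Both settings lower the number by construction, a score minimum raises the median score, and merging removes the shortest gaps. A limit of 1 kb gave 25.5% of gaps and 44.8% of peaks in runs, and one of 5 kb gave 43.0% and 65.7%. The directions of these shifts were fixed by the limits, so the tally of 14 is in part an outcome of the settings themselves. The share of peaks in the 28 fullest windows of 100 kb ran from 29.8% to 32.4%. The longest empty stretch was 438 kb, and the fullest fixed window was that from 17400001, as deposited, with the score minimum and after merging. After merging, no run of 3R had 5 or more peaks, against 5 runs on X, and with the score minimum 3R had 2.17% of its peaks in such runs, above 1.93% on 2R. Alternatives for gene starts and GA-rich elements were not run. No paired analysis was possible because only the ChIP list was analysed here, and leaving out a sample was not possible either. Weak peaks and empty stretches are limited by the unknown depth.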
